A study of Homo sapiens with 9 samples.

Results

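The HSP90 system, the mitochondrial chaperonins and the heat shock factors were followed through 10 genes in the human hepatocellular carcinoma line HuH-7. The set was a fixed list of gene symbols: the cytosolic HSP90 isoforms HSP90AA1 and HSP90AB1, the HSP90 cochaperones AHSA1, STIP1 and FKBP4, the mitochondrial folding proteins HSPD1, HSPE1 and HSPA9, and the transcription factors HSF1 and HSF2. All 10 matched an Ensembl identifier among the 63677 counted, and all 10 were among the 18237 genes tested, with a level above the 1 CPM minimum in every library. Ribosomal RNA-depleted total RNA was sequenced from 9 conditions with 1 library each: arsenic at 5 µM with copper at 5 µM, acetaminophen at 10 mM with serum exosomes, exosomes alone (obtained from 1 ml of serum), acetaminophen at 10 mM with caffeine at 2 mM, caffeine alone, acetaminophen alone, arsenic at 5 µM, arsenic at 15 µM, and an untreated control. All libraries come from the same tumour-derived line. Neither the length of exposure nor the origin of the serum is stated in the labels. No condition was replicated, so differences between libraries have no replicate check.

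HSP90 is an ATP-driven chaperone that finishes the folding of kinases, steroid receptors and many other client proteins, with cochaperones that bring clients in, speed its ATPase or release it. HSP60 (HSPD1) and its lid HSP10 (HSPE1) fold proteins inside mitochondria after mitochondrial HSP70 (HSPA9, mortalin) has helped pull them through the inner membrane. When unfolded proteins accumulate, as with heat or trivalent arsenic, the factor HSF1 forms trimers and binds heat shock elements, which are alternating GAA and TTC units in the promoters of chaperone genes, while its own activity is set mainly after translation. HSF2 is a related factor that can join HSF1 in mixed trimers.

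For FKBP4 and HSF1 no promoter was searched. Promoters of the other 8 of the 10 genes were read from the RefSeq promoter table (GRCh38.p14, 15 promoters reaching from 250 bases before to 50 after a start site). They were searched on both strands for the heat shock element pairs GAANNTTC and TTCNNGAA, which overlap where units follow each other, and for runs of 3 alternating units. A pair was present in 5 of the 15 promoters and a run of 3 units in 3 of them, each in a different gene. Across all 35116 promoters of the table, 13.5% held either pair and 0.49% a run of 3 units. The 250 bases before the start site are shown for the genes with such runs, because these genes also had the highest levels among the 10, and the capitals mark the pairs.
HSP90AA1: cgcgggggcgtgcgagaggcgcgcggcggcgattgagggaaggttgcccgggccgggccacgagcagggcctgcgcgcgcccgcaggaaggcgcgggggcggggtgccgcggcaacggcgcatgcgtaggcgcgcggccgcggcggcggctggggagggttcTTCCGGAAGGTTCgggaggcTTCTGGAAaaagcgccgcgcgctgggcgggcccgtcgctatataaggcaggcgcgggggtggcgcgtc
HSP90AB1: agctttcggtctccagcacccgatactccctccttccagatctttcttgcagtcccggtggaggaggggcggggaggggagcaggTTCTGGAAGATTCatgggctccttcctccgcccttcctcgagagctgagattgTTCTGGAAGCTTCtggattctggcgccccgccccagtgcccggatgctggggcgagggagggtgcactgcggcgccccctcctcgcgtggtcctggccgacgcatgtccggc
HSPD1: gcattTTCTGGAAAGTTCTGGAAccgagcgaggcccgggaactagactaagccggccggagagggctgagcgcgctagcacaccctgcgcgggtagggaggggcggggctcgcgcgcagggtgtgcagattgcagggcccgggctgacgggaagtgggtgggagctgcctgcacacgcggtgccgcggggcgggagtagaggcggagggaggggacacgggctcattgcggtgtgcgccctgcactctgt
The HSP90AA1 stretch is chr14:102087045-102087294 on the minus strand, with 3 pairs and 1 run of 3 units that begins 88 bases before the start. The HSP90AB1 stretch is chr6:44247693-44247942 on the plus strand, with 4 pairs in 2 runs that begin 165 and 112 bases before the start used here. The windows of other starts in the table held no pair. These were chr14:102139700-102139999 for HSP90AA1 and chr6:44245944-44246243 and chr6:44246851-44247150 for HSP90AB1. The HSP90AB1 runs lie downstream of both of its other windows. In HSPD1, chr2:197499841-197500090 on the minus strand, 3 overlapping pairs form a block of 18 bases. HSPD1 and HSPE1 are transcribed away from each other, and this block lies 228 bases from the HSPD1 start used here and 294 bases from the HSPE1 start, between the 2 starts, which are 539 bases apart. A further HSPD1 start of the table lies 189 bases to the HSPE1 side of the block.

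STIP1 and HSPA9 each had a single pair at the start site, shown with 10 bases on either side.
STIP1: ttctagtaggTTCCAGAAggcggcgcgt
HSPA9: ggttggaggtTTCCAGAAgcgctgccgc
The STIP1 window is chr11:64186174-64186201 on the plus strand and its pair begins 14 bases into the transcript. A further STIP1 promoter of the table, chr11:64185022-64185321, held no pair. The HSPA9 window is chr5:138575388-138575415 on the minus strand and its pair begins 4 bases before the start. The AHSA1, HSPE1 and HSF2 windows held no pair. A match describes the letters of these windows alone, and no binding was measured.

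Gene counts per library ran from 658725 in acetaminophen with exosomes up to 8227906 in caffeine, and the control had 951816. In the acetaminophen and arsenic 5 µM libraries, log2 levels centred on the 9-library mean were lower for genes of higher GC content (Pearson's r across 7201 genes -0.636 and -0.474, against 0.261 in the control). They were higher for such genes in arsenic with copper (0.461) and in acetaminophen with caffeine (0.426). In the acetaminophen and arsenic 5 µM libraries, small nucleolar RNA genes took 11.5% and 35.5% of their counts, against 4.86% in the control. Counts for pairs with one of these 4 libraries are also given with the GC and length trend removed. Scaling by DESeq2 size factors rather than TMM moved all log2 ratios of a pair by -0.18 to 0.15, so a ratio nearer to 0 than this has no settled direction. All 10 HuH-7 marker genes were detected, with a summed level of 8742 CPM (arsenic 15 µM) to 28403 CPM (acetaminophen). The red cell and platelet genes HBA2, PPBP and PF4 were at 0 in every library, and the 5 genes of that list together stayed at or under 0.968 CPM. The 4 leukocyte markers summed to 26.2 to 272 CPM, nearly all of it LYZ, with PTPRC at 2.55 CPM or less, and the 5 fibroblast and stellate cell markers to 27.6 to 64.1 CPM. The part of these differences in the results was not tested.

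**Figure D1:**
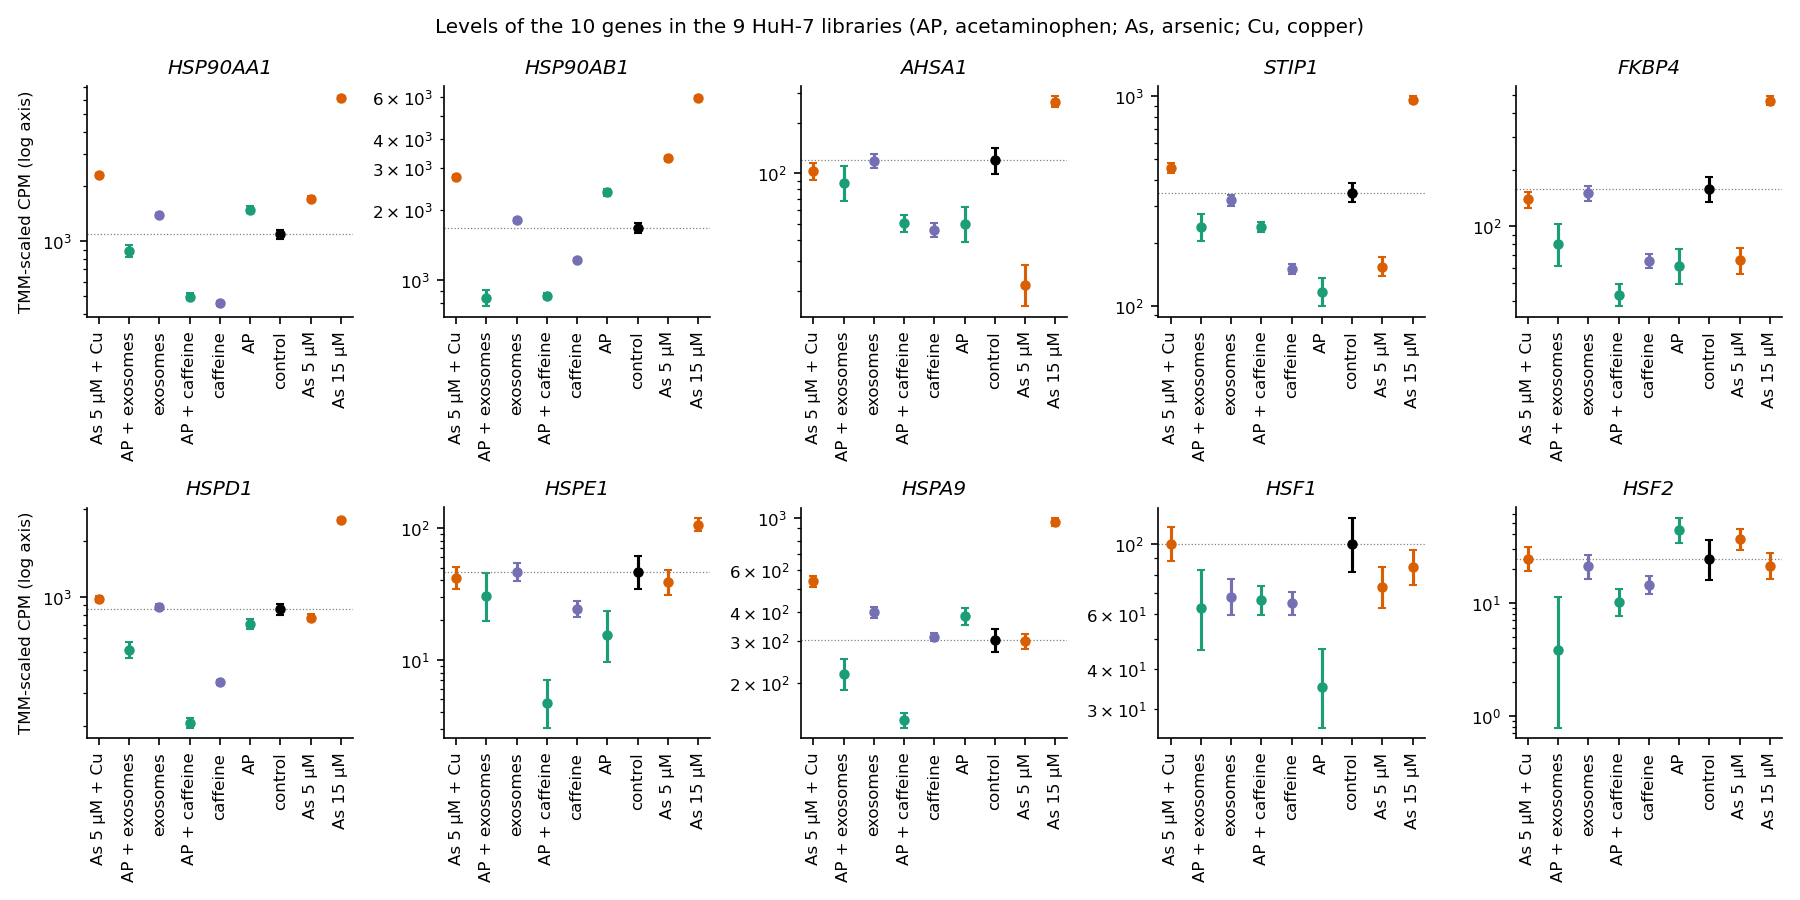
Level of each gene in each of the 9 libraries as TMM-scaled CPM (CPM, counts scaled to library size, log axis, 1 panel a gene), with bars for the 95% counting interval and a dotted line at the control. The arsenic 15 µM library stands highest in 8 panels (HSP90AA1 at 6148 CPM, against 1090 CPM in the control), and HSF1 and HSF2 are the exceptions.

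Levels are given as TMM-scaled CPM, and their intervals, like those of the ratios, are 95% intervals that cover counting error only. With 1 library a condition, they hold no variation between cultures or library preparations. PCR copies of a molecule were not distinguished, so the intervals may be too narrow even for counting error. In RNA of whole cultures, fewer cells with a transcript and less of it per cell cannot be told apart. Per kilobase of annotated exon, mean levels over the 9 libraries ranged from 774 CPM for HSP90AB1, 339 CPM for HSP90AA1 and 206 CPM for HSPD1 down to 13.7 CPM for HSF1 and 8.19 CPM for HSF2. STIP1 (71.1 CPM), HSPA9 (47.8 CPM), AHSA1 (32.5 CPM), FKBP4 (26.3 CPM) and HSPE1 (20 CPM) lay between on the same scale. Together the 10 genes took 0.759% of gene counts in arsenic with copper, 0.353% in acetaminophen with exosomes, 0.574% in exosomes, 0.206% in acetaminophen with caffeine, 0.279% in caffeine and 0.589% in acetaminophen. Along the arsenic series their share was 0.512% in the control, 0.414% at 5 µM and 1.64% at 15 µM. These shares are of unscaled counts, of which small nucleolar RNA genes took 35.5% at 5 µM arsenic. As TMM-scaled levels, the 10 genes summed to 4716 CPM in the control, 6477 CPM at 5 µM and 17595 CPM at 15 µM. The sum was thus higher at 5 µM than in the control, although the share was lower. Only 3 of the 10 genes were above the control at 5 µM: HSP90AA1, HSP90AB1 and HSF2, the last within counting error. The median log2 ratio of the 10 was -0.21, against -0.23 over all genes, so the higher sum does not describe the set as a whole.

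HSP90AA1, the stress-inducible HSP90 alpha isoform, stood at 2321 CPM in arsenic with copper, 888 CPM in acetaminophen with exosomes, 1391 CPM in exosomes, 496 CPM in acetaminophen with caffeine, 455 CPM in caffeine and 1490 CPM in acetaminophen. Along the arsenic series it stood at 1090 CPM in the control, 1713 CPM at 5 µM and 6148 CPM at 15 µM. All 3 arsenic libraries lay above all the others, both caffeine libraries lay below all the others, and no 2 libraries next to each other in this order had a ratio whose counting interval included 1. HSP90AB1, the constitutive HSP90 beta isoform, stood at 2744 CPM in arsenic with copper, 840 CPM in acetaminophen with exosomes, 1803 CPM in exosomes, 858 CPM in acetaminophen with caffeine, 1217 CPM in caffeine and 2366 CPM in acetaminophen. Its arsenic series was 1672 CPM in the control, 3306 CPM at 5 µM and 5965 CPM at 15 µM. Again the 3 arsenic libraries were the highest, and the lowest pair, acetaminophen with caffeine and acetaminophen with exosomes, did not differ beyond counting error.

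AHSA1, which stimulates the HSP90 ATPase, stood at 103 CPM in arsenic with copper, 88 CPM in acetaminophen with exosomes, 118 CPM in exosomes, 50.3 CPM in acetaminophen with caffeine, 46 CPM in caffeine and 50 CPM in acetaminophen. Its arsenic series was 119 CPM in the control, 21.7 CPM at 5 µM and 266 CPM at 15 µM. The lowest and the highest library of AHSA1 were thus both arsenic libraries. STIP1, the adaptor HOP that links HSP70 to HSP90, stood at 455 CPM in arsenic with copper, 237 CPM in acetaminophen with exosomes, 319 CPM in exosomes, 238 CPM in acetaminophen with caffeine, 150 CPM in caffeine and 117 CPM in acetaminophen. It stood at 347 CPM in the control, 154 CPM at 5 µM and 961 CPM at 15 µM arsenic. FKBP4, the peptidyl-prolyl isomerase FKBP52 of steroid receptor complexes, ordered its arsenic series in the same way. Its levels were 139 CPM in arsenic with copper, 80.3 CPM in acetaminophen with exosomes, 150 CPM in exosomes, 42.9 CPM in acetaminophen with caffeine, 65.3 CPM in caffeine and 61.2 CPM in acetaminophen. The arsenic series of FKBP4 was 158 CPM in the control, 65.7 CPM at 5 µM and 466 CPM at 15 µM. All 3 cochaperones were therefore lower at 5 µM arsenic and higher at 15 µM arsenic than in the control.

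HSPD1, the HSP60 ring subunit, stood at 976 CPM in arsenic with copper, 516 CPM in acetaminophen with exosomes, 878 CPM in exosomes, 207 CPM in acetaminophen with caffeine, 343 CPM in caffeine and 709 CPM in acetaminophen. It stood at 856 CPM in the control, 770 CPM at 5 µM and 2618 CPM at 15 µM arsenic. Only the exosome and control libraries, next to each other in its order, did not differ beyond counting error. HSPE1, the HSP10 lid, stood at 42 CPM in arsenic with copper, 30.6 CPM in acetaminophen with exosomes, 46.7 CPM in exosomes, 4.72 CPM in acetaminophen with caffeine, 24.3 CPM in caffeine and 15.5 CPM in acetaminophen. Its arsenic series was 46.4 CPM in the control, 38.8 CPM at 5 µM and 106 CPM at 15 µM. In the GENCODE 29 annotation 23.9% of its exon bases are shared with HSPD1 (281 bases) or with the read-through gene HSPE1-MOB4 (192 bases), and reads there can be counted as ambiguous, so its level is uncertain. HSPA9, the mitochondrial HSP70, stood at 537 CPM in arsenic with copper, 218 CPM in acetaminophen with exosomes, 397 CPM in exosomes, 139 CPM in acetaminophen with caffeine, 312 CPM in caffeine and 383 CPM in acetaminophen. The arsenic series of HSPA9 was 303 CPM in the control, 299 CPM at 5 µM and 960 CPM at 15 µM. Small nucleolar RNA entries share 1.09% of its exon bases. The 3 mitochondrial genes had their highest level at 15 µM arsenic and their lowest in acetaminophen with caffeine.

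HSF1 stood at 100 CPM in arsenic with copper, 62.5 CPM in acetaminophen with exosomes, 67.9 CPM in exosomes, 66.5 CPM in acetaminophen with caffeine, 64.9 CPM in caffeine and 35.2 CPM in acetaminophen. Its arsenic series was 99.7 CPM in the control, 72.9 CPM at 5 µM and 84.5 CPM at 15 µM. Of the 8 steps between neighbours in its order, 7 did not exceed counting error, the exception being the acetaminophen library at the bottom. HSF1 had the highest GC content of the 10 (64.7% of its longest transcript), and the acetaminophen library had the steepest decline of levels with GC content; the part of this in the HSF1 value was not tested. HSF2 stood at 24.5 CPM in arsenic with copper, 3.83 CPM in acetaminophen with exosomes, 21 CPM in exosomes, 10.2 CPM in acetaminophen with caffeine, 14.4 CPM in caffeine and 43.6 CPM in acetaminophen. It stood at 24.2 CPM in the control, 36.2 CPM at 5 µM and 21.2 CPM at 15 µM arsenic. The lowest HSF2 value rests on 3 counts. The highest level was 2.84 times the lowest for HSF1, against 6.91 (HSPA9) to 22.5 times (HSPE1) for the other 9 genes.

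In the arsenic 15 µM library, 8 of the 10 genes were at least 2 times higher than in the control with a counting interval above 1, and 0 were as much lower. Over all genes tested, 16.5% were as much higher and 14.4% as much lower in this pair. The median log2 ratio of the 10 genes was 1.51, against -0.16 over all genes. HSP90AA1 had a ratio of 5.64 (5.31 to 5.99) and HSP90AB1 of 3.57 (3.39 to 3.75). Among the cochaperones the ratio was 2.95 (2.51 to 3.5) for FKBP4, 2.77 (2.48 to 3.1) for STIP1 and 2.24 (1.85 to 2.73) for AHSA1. The isoforms and cochaperones were thus all higher, the inducible isoform by the most. In the mitochondrial group the ratio was 3.17 (2.82 to 3.57) for HSPA9, 3.06 (2.85 to 3.28) for HSPD1 and 2.28 (1.67 to 3.16) for HSPE1. HSF1 had a ratio of 0.848 (0.67 to 1.08) and HSF2 of 0.877 (0.541 to 1.46), both intervals including 1. With the GC and length trend removed, the count was again 8 higher and 0 lower.

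**Figure D2:**
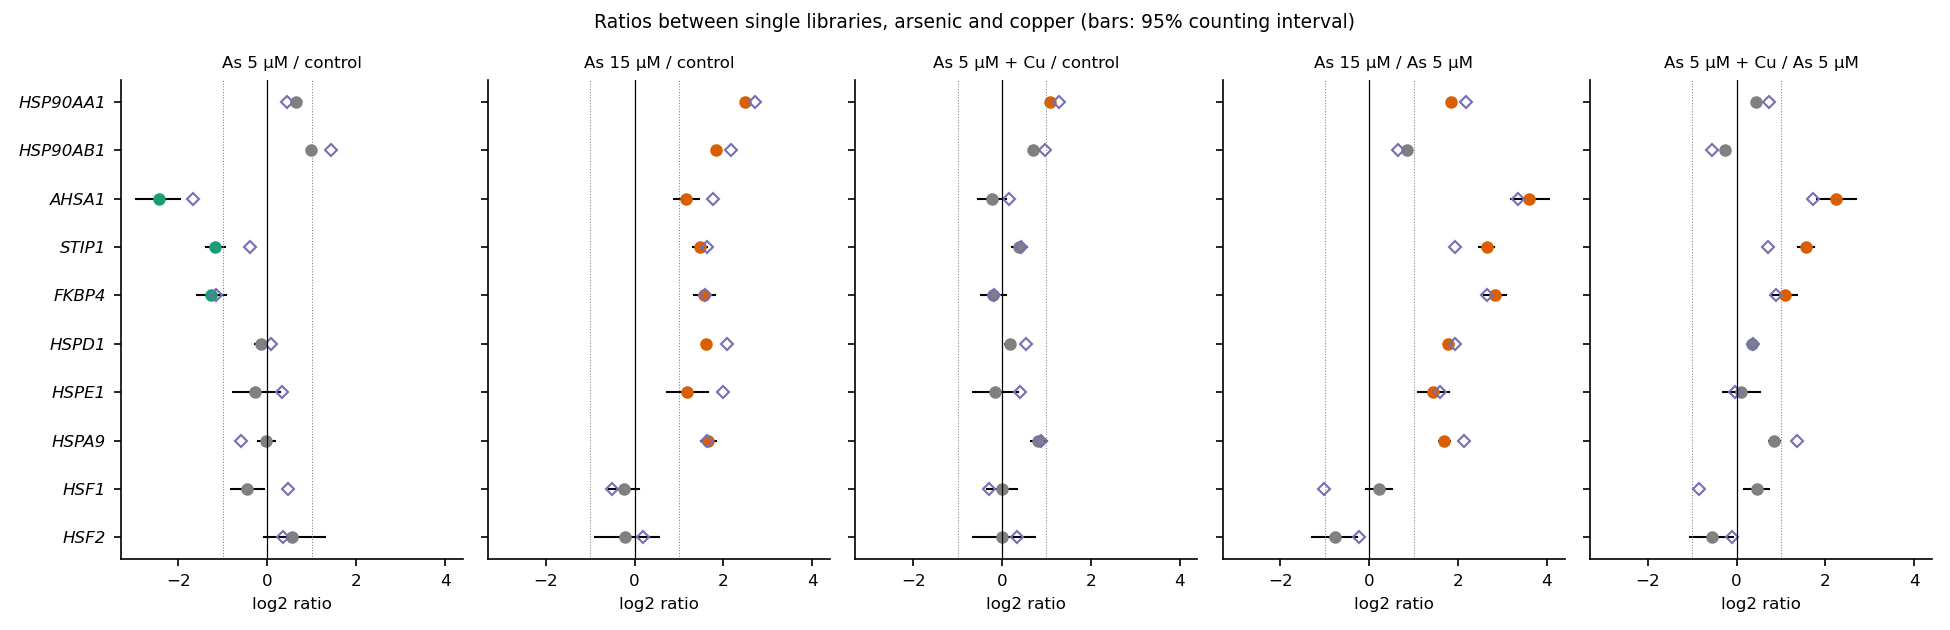
Log2 ratio of TMM-scaled CPM between 2 libraries for each gene, 1 panel a pair, with bars for the 95% counting interval and open diamonds for the ratio with the GC and length trend removed. Orange points are at least 2 times higher, green points at least 2 times lower with an interval excluding 1, and grey points neither. At 15 µM against the control, 8 points lie right of the upper dotted line, and at 5 µM 3 cochaperones lie left of the lower one.

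At 5 µM arsenic against the control, 0 of the 10 genes were at least 2 times higher and 3 were as much lower, against 16.4% and 15% of all genes. The 3 were the cochaperones: AHSA1 with a ratio of 0.183 (0.129 to 0.255), FKBP4 with 0.416 (0.332 to 0.522) and STIP1 with 0.443 (0.382 to 0.514). The HSP90 isoforms lay above the control by less than 2 times, with 1.98 (1.88 to 2.08) for HSP90AB1 and 1.57 (1.47 to 1.68) for HSP90AA1. With the GC and length trend removed, the log2 ratio of STIP1 was -0.38 in place of -1.17, and that of HSP90AB1 1.44 in place of 0.98. AHSA1 (-1.67) and FKBP4 (-1.15) stayed lower by more than 2 times, so that the count was 1 higher and 2 lower.

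Between the doses, at 15 µM against 5 µM, 7 genes were at least 2 times higher and 0 as much lower, against 19.6% and 17.5% of all genes. The cochaperones stood furthest apart here, with ratios of 12.3 (9.22 to 16.6) for AHSA1, 7.09 (6 to 8.43) for FKBP4 and 6.24 (5.59 to 6.99) for STIP1. HSP90AA1 followed with 3.59 (3.47 to 3.71), HSPD1 with 3.4 (3.23 to 3.58), HSPA9 with 3.21 (2.96 to 3.5) and HSPE1 with 2.72 (2.15 to 3.49). HSP90AB1, at 1.8 (1.76 to 1.85), did not reach 2 times. With the trend removed, the same count was 7 higher and 1 lower, the lower gene being HSF1 (log2 ratio -1.02, against 0.21 without the removal). AHSA1 (log2 ratio 3.35) and FKBP4 (2.66) then still stood furthest apart. STIP1 (1.93, against 2.64 without the removal) lay below HSP90AA1 (2.18) and HSPA9 (2.14), so the cochaperones no longer ranked first as a group.

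Arsenic at 5 µM with copper had 1 gene at least 2 times higher than the control and 0 as much lower, against 9.22% and 7.11% of all genes. The gene was HSP90AA1, at 2.13 (2 to 2.27), and other library scalings put it under 2 times, while with the trend removed the count was again 1 higher and 0 lower. HSPA9 came next at 1.77 (1.57 to 2.01) and HSP90AB1 at 1.64 (1.56 to 1.73). Against arsenic at 5 µM alone, 3 genes were at least 2 times higher and 0 lower, against 16.5% and 13.7% of all genes. They were again the cochaperones, AHSA1 at 4.72 (3.49 to 6.49), STIP1 at 2.96 (2.63 to 3.34) and FKBP4 at 2.11 (1.75 to 2.56). With the trend removed, AHSA1 (log2 ratio 1.73) and HSPA9 (1.37) were the genes at least 2 times higher, while STIP1 (0.71) and FKBP4 (0.88) were not. These pairs share the control or the arsenic 5 µM library, so their ratios are not independent of each other.

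Within a library, the ratio of 2 genes' counts does not depend on library scaling, but it was not corrected for the GC and length trend. In acetaminophen against the control, the log2 ratios of HSP90AA1 and HSP90AB1 were 0.45 and 0.50. With the trend removed they were 0.04 and 0.69, so the acetaminophen count ratio below depends on that trend. HSP90AA1 had 0.846 (0.818 to 0.875) counts for each HSP90AB1 count in arsenic with copper, 1.06 (0.948 to 1.18) in acetaminophen with exosomes, 0.772 (0.743 to 0.802) in exosomes, 0.579 (0.551 to 0.607) in acetaminophen with caffeine, 0.373 (0.36 to 0.388) in caffeine and 0.63 (0.596 to 0.665) in acetaminophen. In the arsenic series the ratio was 0.652 (0.605 to 0.703) in the control, 0.518 (0.499 to 0.538) at 5 µM and 1.03 (1.01 to 1.05) at 15 µM. Relative to the beta isoform, the alpha isoform was thus higher at 15 µM and lower at 5 µM than in the control, and caffeine alone had the lowest ratio of the 9. Adding the counts of annotated pseudogene copies, which held at most 0.559% of the parent's counts for HSP90AA1 and 0.432% for HSP90AB1, moved no ratio by more than its interval.

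HSPD1 had 23.2 (19.3 to 28.3) counts for each HSPE1 count in arsenic with copper, 16.9 (11.2 to 26.6) in acetaminophen with exosomes, 18.8 (16 to 22.2) in exosomes, 43.9 (29.6 to 68.1) in acetaminophen with caffeine, 14.1 (12.2 to 16.3) in caffeine and 45.8 (30.1 to 73.4) in acetaminophen. In the arsenic series it was 18.4 (13.8 to 25.2) in the control, 19.8 (16.1 to 24.8) at 5 µM and 24.8 (22 to 27.9) at 15 µM. The 2 libraries with ratios above 40 rest on 25 and 22 HSPE1 counts. Apart from them, the intervals of the other treated libraries overlapped that of the control. In acetaminophen against the control, the log2 ratios of HSPD1 and HSPE1 were -0.27 and -1.57. With the GC and length trend removed they were -0.28 and -0.90, so the 2 genes stood less far apart. Annotated pseudogene copies of HSPE1 held 12% of the parent's counts in acetaminophen with caffeine and 8.33% in the control. With copies added, the ratio was 39.4 in acetaminophen with caffeine and 17.2 in the control, both within their intervals.

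**Figure D3:**
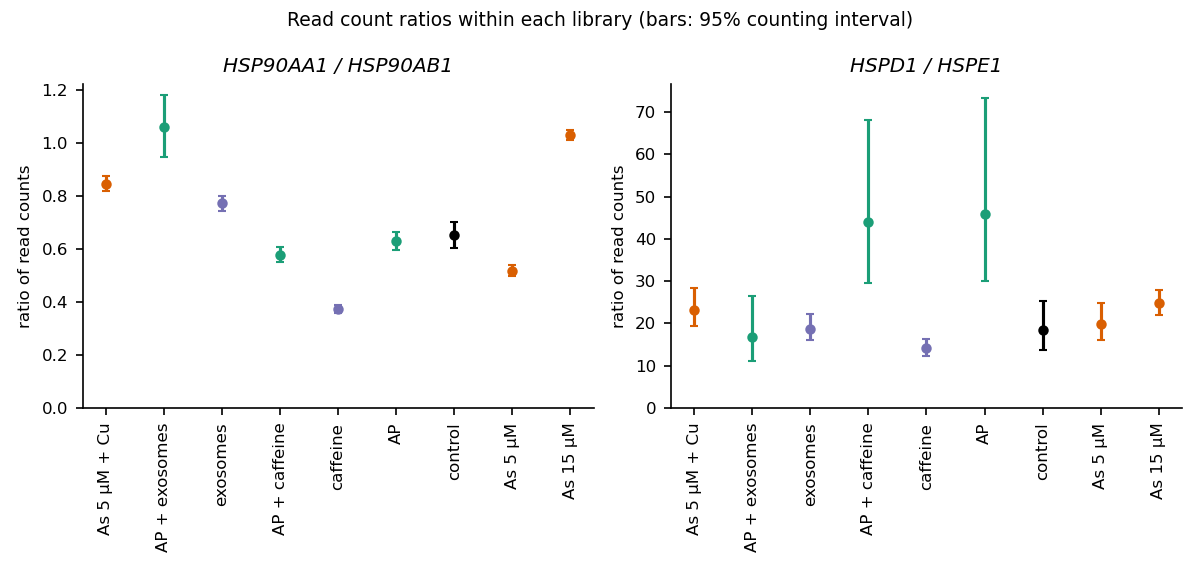
Ratio of the read counts of 2 genes within each of the 9 libraries, HSP90AA1 over HSP90AB1 on the left and HSPD1 over HSPE1 on the right, with bars for the 95% counting interval on linear axes that start at 0. The left panel runs from 0.373 in caffeine to 1.06 in acetaminophen with exosomes, and the right panel shows acetaminophen (45.8) and acetaminophen with caffeine (43.9) above the other libraries.

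Acetaminophen was set against its background in 3 pairs of libraries that share none. In acetaminophen against the control, 0 genes were at least 2 times higher and 5 as much lower, against 13% and 12.1% of all genes. The 5 were HSPE1 at 0.333 (0.192 to 0.563), STIP1 at 0.336 (0.278 to 0.405), HSF1 at 0.353 (0.247 to 0.5), FKBP4 at 0.388 (0.296 to 0.507) and AHSA1 at 0.42 (0.309 to 0.567). With the GC and length trend removed, FKBP4 alone remained as much lower (log2 ratio -1.33), and the other 4 had log2 ratios of -0.3 to -0.9. HSP90AA1 (1.37, 1.27 to 1.47) and HSP90AB1 (1.42, 1.33 to 1.5) were above the control, but with the trend removed the log2 ratio of HSP90AA1 was 0.04, in place of 0.45, and that of HSP90AB1 0.69, in place of 0.5.

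In acetaminophen with exosomes against exosomes, 0 genes were at least 2 times higher and 2 as much lower, against 5.22% and 5.14% of all genes. HSP90AB1 had a ratio of 0.466 (0.429 to 0.505) and HSF2, from 3 counts, of 0.183 (0.0368 to 0.556). In acetaminophen with caffeine against caffeine, 0 genes were at least 2 times higher and 2 as much lower, against 12.6% and 13% of all genes. Here they were mitochondrial, HSPE1 at 0.195 (0.123 to 0.295) and HSPA9 at 0.444 (0.409 to 0.482), and the count with the trend removed was again 0 higher and 2 lower. FKBP4 lay below its background in all 3 pairs, at 0.388, 0.536 (0.406 to 0.697) and 0.657 (0.56 to 0.767), and so did HSPD1, at 0.828 (0.755 to 0.907), 0.588 (0.529 to 0.653) and 0.605 (0.564 to 0.649). HSPE1 was also below its background in all 3, at 0.333, 0.655 and 0.195, but the interval of the exosome pair (0.408 to 1.01) included 1. None of the 10 genes lay above its background in all 3. The share of all genes below their background in all 3 pairs was not counted. The pattern can therefore not be read as particular to FKBP4, HSPD1 or HSPE1.

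Exosomes alone left all 10 genes within 2 times of the control: 0 were higher and 0 lower, against 3.57% and 1.44% of all genes. The ratios ran between 0.682 (0.538 to 0.869) for HSF1 and 1.31 (1.16 to 1.49) for HSPA9. In acetaminophen with exosomes against acetaminophen, 1 gene was at least 2 times higher and 2 as much lower, against 10.2% and 8.89% of all genes. STIP1 was higher at 2.03 (1.64 to 2.52), with a log2 ratio of 0.38 once the GC and length trend was removed. HSP90AB1 was lower at 0.355 (0.326 to 0.386) and HSF2 at 0.0877 (0.0176 to 0.268), again from 3 counts. With the trend removed, the count was 0 higher and 2 lower.

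Caffeine was set against its background in 2 pairs that share no library. Against the control, 0 genes were at least 2 times higher and 5 as much lower, against 11.6% and 8.63% of all genes. The 5 were AHSA1 at 0.386 (0.315 to 0.477), HSPD1 at 0.4 (0.371 to 0.432), FKBP4 at 0.414 (0.347 to 0.496), HSP90AA1 at 0.417 (0.39 to 0.446) and STIP1 at 0.432 (0.384 to 0.487). With the GC and length trend removed, HSP90AA1 (log2 ratio -1.21) and FKBP4 (-1.24) remained as much lower. In acetaminophen with caffeine against acetaminophen, 1 gene was at least 2 times higher and 6 as much lower, against 18.8% and 15% of all genes. The lower genes were HSF2 at 0.234 (0.159 to 0.342), HSPD1 at 0.293 (0.268 to 0.319), HSPE1 at 0.305 (0.165 to 0.568), HSP90AA1 at 0.333 (0.315 to 0.353), HSPA9 at 0.362 (0.323 to 0.405) and HSP90AB1 at 0.363 (0.347 to 0.379). STIP1 was the higher gene, at 2.03 (1.73 to 2.41), with a log2 ratio of 0.15 once the trend was removed. The count was then 0 higher and 5 lower, HSPA9 (log2 ratio -0.92) no longer being 2 times lower. HSP90AA1 and HSPD1 were thus at least 2 times lower with caffeine on both backgrounds, and with the trend removed their log2 ratios were -1.21 and -0.87 without acetaminophen and -1.17 and -1.32 with it. The share of all genes as much lower on both backgrounds was not counted.

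**Figure D4:**
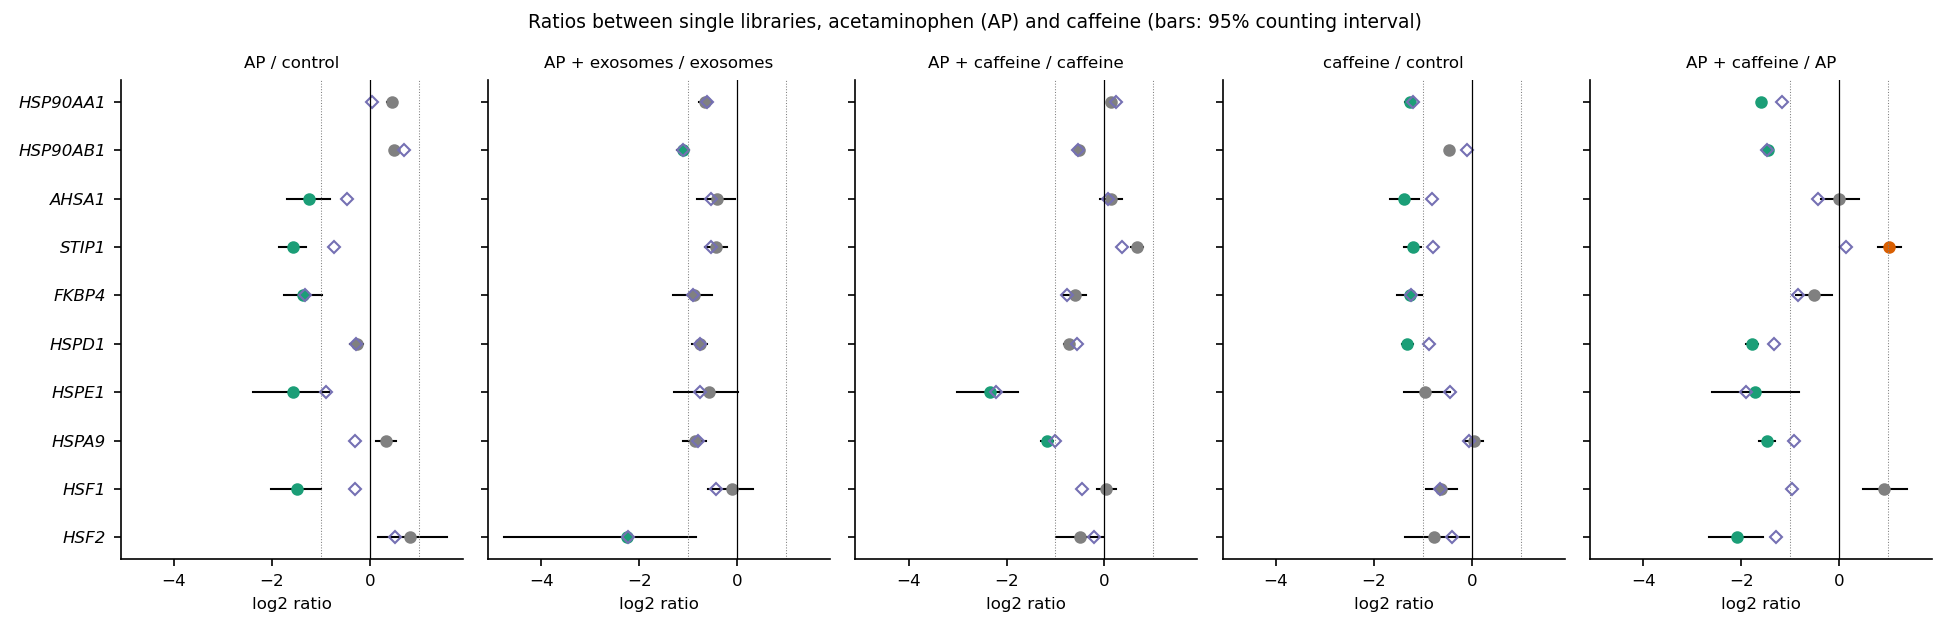
Log2 ratio of TMM-scaled CPM between 2 libraries for the acetaminophen and caffeine pairs, with bars for the 95% counting interval and open diamonds for the ratio with the GC and length trend removed (colours: green at least 2 times lower, orange at least 2 times higher, grey neither). In the acetaminophen against control panel 5 points are green, while 4 of their diamonds lie inside the dotted lines at 2 times.

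The conditions were tested together in an additive edgeR quasi-likelihood model over the 9 libraries, in which departures from additive effects serve as the spread. Neither this model nor those with an extra term had the GC and length trend removed. For arsenic, 0 of the 10 genes passed at a Benjamini-Hochberg adjusted p under 0.05, against 0.34% of all genes higher and 0.154% lower. Among the 10, 0 had an unadjusted p under 0.05 (1673 of all genes), and DESeq2 called 0 (170 of all genes). The largest member coefficient was that of HSP90AA1 (log2 fold change 1.38, SE 0.912, adjusted p 0.714), and 9 of the 10 were positive, HSF2 being the exception at -0.67. The median over the 10 was 0.53, against 0.07 over all genes, and the share of all genes with a positive coefficient was not counted.

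A term for arsenic at 15 µM beyond the other arsenic libraries called 0 members, against 1.09% of all genes. The cochaperones FKBP4 (log2 fold change 2.19, SE 0.787, adjusted p 0.175) and AHSA1 (2.1, SE 0.768, adjusted p 0.188) were the 2 with an unadjusted p under 0.05, as were 1846 of all genes, and DESeq2 called 0 members and 96 genes. The median over the 10 was 1.49, against 0 over all genes. Without the arsenic with copper library, AHSA1 passed this test, in a setting that also called more of all genes than the full model did. The term for copper with arsenic called 0 members and 0% of genes, with 0 members and 428 genes at an unadjusted p under 0.05. Its member coefficients ran from -0.94 (FKBP4) to 0.34 (HSF1), with a median of -0.62 against -0.12 over all genes.

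For acetaminophen 0 members passed, against 0.00548% of all genes higher and 0.0165% lower. HSPE1 alone had an unadjusted p under 0.05 (log2 fold change -1.52, SE 0.601, adjusted p 0.667), as did 973 genes in all, and DESeq2 called 0 members and 49 genes. All 10 coefficients were negative, with a median of -0.52 against -0.04 over all genes. The share of all genes with a negative coefficient was not counted, and the GC and length trend was not removed from these coefficients. For caffeine 0 members passed, against 0.0219% of all genes higher and 0.0603% lower. HSF2 alone had an unadjusted p under 0.05 (-1.57, SE 0.749, adjusted p 0.672), as did 1334 genes in all, and DESeq2 called 0 members and 51 genes. HSPD1 (-1.55, SE 0.816, adjusted p 0.709) and HSP90AA1 (-1.44, SE 0.865, adjusted p 0.727) had coefficients of similar size, and the median of the 10 was -0.96 against 0.12 over all genes.

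For exosomes 0 members passed, against 0% of genes in either direction, with 0 members and 113 genes at an unadjusted p under 0.05 and 0 calls by DESeq2. The terms for acetaminophen by exosomes and acetaminophen by caffeine also called 0 members and 0% of genes. At an unadjusted p under 0.05 they had 0 members each and 87 and 198 genes, and DESeq2 called 0 genes for either. The smallest adjusted p of any of the 10 genes in any of these models was therefore that of FKBP4 in the arsenic 15 µM term.

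The genes whose pattern was most like that of 3 members were found by the mean absolute difference between centred log2 levels over the 9 libraries, among the 7280 genes whose mean reached 20 CPM. This is a description of these libraries. For HSP90AA1 they were CAPN2 (0.285), CHORDC1 (0.286), ETV5 (0.292), RIPOR1 (0.31) and HSPD1 (0.317), where the median gene was at 0.965. HSPA9 ranked 8 and HSP90AB1 11 in that order, whereas AHSA1 ranked 2289. For HSPD1 they were TPM4 (0.202), SPATS2L (0.217), CHORDC1 (0.247), GABPB1 (0.267) and MAGEB2 (0.269), with the median gene at 0.892, HSP90AA1 at rank 11, HSPA9 at 20, FKBP4 at 25 and HSPE1 at 55. CHORDC1, itself an HSP90 cochaperone, stood in both orders. HSF1 was most like NOP53 (0.101), E2F4 (0.125), SLC4A2 (0.147), PEF1 (0.154) and MLF2 (0.164), with the median gene at 0.616. The member nearest to HSF1 was STIP1, at rank 1453.

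Other genes of the same pathways were counted in the arsenic 15 µM against control pair, where 16.5% of all genes were at least 2 times higher, 14.4% as much lower, and the median log2 ratio was -0.16. The list of HSP90 cochaperones held 12 further genes, among them TRAP1, which is itself an HSP90 and not a cochaperone. Of the 12, 2 were at least 2 times higher and 2 as much lower at 15 µM than in the control. The median log2 ratio was -0.01, and these shares were close to those over all genes. The 3 most abundant were PTGES3 (p23; log2 ratio 0.18), the mitochondrial HSP90 paralogue TRAP1 (-0.77) and NUDC (0.5). The 4 that stood apart, named after their values were seen, were CHORDC1 (2.17) and the cyclophilin PPID (2.22) on the higher side and the ubiquitin ligase STUB1 (-1.24) and FKBP5 (-1.06) on the lower. CHORDC1 stood at 194 CPM at 15 µM arsenic, against 42.6 CPM in the control.

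Of 14 further genes of mitochondrial protein folding and import, 3 were higher and 1 lower in the same pair, with a median of 0.37. These shares too lie near those over all genes. The protease LONP1, the most abundant, had a log2 ratio of 1.41 and the import receptors TOMM20 and TOMM70 had 0.05 and 0.58. The other genes apart, named after their values were seen, were the disaggregase CLPB (2.22), the nucleotide exchange factor GRPEL2 (2.58) and, on the lower side, DNAJC19 (-1.52). The 8 subunits of the cytosolic chaperonin TRiC had 0 higher and 0 lower and a median of 0.14, with CCT3 at 0.19, CCT7 at -0.51 and CCT6A at -0.82. Of 6 HSF relatives and partners 3 were tested, with 0 apart and a median of -0.69. That median is the value of HSF4, which rests on 2 counts at 15 µM and 1 in the control. The most abundant, the HSF1-binding protein gene HSBP1, had 114 CPM at 15 µM arsenic, against 126 CPM in the control. HSF4 and HSF2BP were at 6.43 CPM or less in every library. These 4 lists had 0 genes called by edgeR in any of the 8 terms.

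Among 14 other heat shock genes, 12 were at least 2 times higher at 15 µM than in the control and 0 lower, with a median log2 ratio of 4.15, against 16.5% and 14.4% of all genes and a median of -0.16. The abundant HSPA8, the constitutive cytosolic HSP70, was not among the 12 (log2 ratio 0.18; 3066 CPM, against 2702 CPM in the control). DNAJB1, the main HSP40, stood at 4363 CPM at 15 µM arsenic, against 168 CPM in the control. In the edgeR arsenic term, where 0.34% of all genes were called higher, 5 of the 14 rose: HSPA6 (adjusted p 0.00208), HSPA1A (log2 fold change 6.45, SE 1.38, adjusted p 0.0191), DNAJA4 (5.77, SE 1.25, adjusted p 0.0198), HSPA1B (5.11, SE 1.15, adjusted p 0.0274) and BAG3 (4.28, SE 1.01, adjusted p 0.0386). HSPA6 was at 0 in the control and 4772 CPM at 15 µM, and HSPA1A and HSPA1B are near-identical copies whose reads may be divided between them. The 15 µM term, which called 1.09% of all genes in either direction, called 7 of the 14 higher. The arsenic term as a whole rests on single libraries, since it called 0 genes without the control or with acetaminophen plus exosomes left out, and the 15 µM term called 17 genes without arsenic 5 µM. In the arsenic 15 µM library, the 8 higher members thus had ratios to the control from 2.24 (AHSA1) to 5.64 (HSP90AA1). HSF1 and HSF2 had 0.848 and 0.877. BAG3 stood at 631 CPM in the same library, against 18.4 CPM in the control.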

How the data were processed

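Total RNA of 9 HuH-7 cultures was isolated with the mirVana kit and depleted of ribosomal RNA, per the labels' protocols, with sequencing on an Ion Torrent Proton. The files deposited by the authors give raw read counts for each Ensembl gene, 1 file a library. The submitters' processing notes name TopHat2 2.0.13, HTSeq 0.6.1 and the build GRCh37. Which annotation release and strand setting were used is not given in the sources, so reads of overlapping or antisense genes cannot be told apart. HTSeq summary lines, 42.3% to 70.3% of reads, were left out of library sizes. The gene counts per library, 658725 to 8227906, make 3 counts worth 3.83 to 0.352 CPM.

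The 18237 genes that reached 1 CPM in 2 or more libraries were scaled by TMM and tested with edgeR 4.0.16 (R 4.3.3, limma 3.58.1), with DESeq2 1.42.0 beside it, on acetaminophen, exosomes, caffeine and arsenic as additive terms (4 residual degrees of freedom) or with 1 extra term (3). In the additive model edgeR added 32.4 prior degrees of freedom from spread shared over genes, so its p-values do not rest on 4 alone. The prior degrees of freedom with 1 extra term are not given here. A term that rests on 1 library takes its spread from the others. The SE shown was obtained as the absolute log2 fold change over the root of F and is not a model estimate. Adjustment was by Benjamini-Hochberg over all genes. For 12 library pairs, ratios of TMM-scaled CPM carry exact conditional binomial 95% intervals, and a gene counted as apart at 2 times or more with 0.5 prior counts and an interval excluding 1. The GC and length trend was fitted within each pair over the 10989 genes whose mean reached 5 CPM. Names, exon lengths and overlaps came from GENCODE 29 on GRCh38, which matched 52526 of 63677 identifiers; no coordinates were converted. Ratios, motifs and plots were made in Python 3.11.15 (scipy 1.17.1, numpy 2.4.6, matplotlib 3.10.9, pandas 2.3.3).

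The 10 genes and the wider lists were chosen with earlier results of these data known. All 10 are named, and of each wider list the 3 with the highest mean level and those called, where 5 or fewer were. The fit was tested on simulated counts. Alternatives were DESeq2 size factors, no filter on low counts, the DESeq2 test, TMM over protein-coding genes, leaving out each library in turn, removal of the GC and length trend and added pseudogene copies; leaving out the acetaminophen and arsenic 5 µM libraries together was added after seeing the data.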

Additional observations from a re-analysis of the deposited data

Results flagged for a closer look

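STIP1, the HSP70 to HSP90 adaptor, had a log2 ratio of 1.02 in acetaminophen with caffeine against acetaminophen (238 CPM, against 117 CPM) and of -1.21 in caffeine against the control (150 CPM, against 347 CPM), so caffeine went with opposite directions on the 2 backgrounds, each from 1 pair of libraries. The test of that difference, the acetaminophen by caffeine term of edgeR, gave a log2 value of 1.66 (SE 1.45, adjusted p 1). The acetaminophen library showed lower levels with GC content, and with the GC and length trend removed the 2 log2 ratios were 0.15 and -0.79.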

How the results depend on the processing

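No paired analysis was possible because each condition has 1 library. For the acetaminophen, exosomes, caffeine and arsenic terms, 560 log2 fold changes of the 10 genes were computed under the alternatives, of which 516 kept their sign and 0 passed the test (smallest adjusted p 0.156). Over all 8 terms, the counts of members stayed at 0 under the alternatives, apart from the arsenic 15 µM term and the copper term. Leaving out 1 library at a time gave 0 to 1 members in the arsenic 15 µM term, the 1 being AHSA1 without arsenic with copper. Without the acetaminophen and arsenic 5 µM libraries together, both terms set arsenic 15 µM against arsenic with copper, and FKBP4 passed in both. That contrast has 1 library on each side, and the share of all genes passing is not given here. The call can therefore not be read as particular to FKBP4. The cause of the AHSA1 call was not tested. Over all genes, leaving out 1 library moved the arsenic term to between 0 calls (control left out, or acetaminophen plus exosomes left out) and 780 (arsenic 5 µM left out), and the 15 µM term to between 17 (without arsenic 5 µM) and 775 (without arsenic with copper).

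For library pairs, arsenic with copper against the control had 0 members apart with DESeq2 size factors and 0 with TMM over protein-coding genes, in place of 1. Acetaminophen with exosomes against exosomes had 1 with DESeq2 size factors, in place of 2. With the GC and length trend removed, acetaminophen against the control had 1 in place of 5, and caffeine against the control 2 in place of 5. For the other pairs the sum of higher and lower members stayed within 1.5 times of the reported one, but single directions moved. Acetaminophen with exosomes against acetaminophen had 2 members higher with DESeq2 size factors or TMM over protein-coding genes and 0 with the trend removed, in place of 1. Acetaminophen with caffeine against acetaminophen had 0 higher with DESeq2 size factors or the trend removed, in place of 1. With the trend removed, arsenic at 5 µM against the control had 1 higher and arsenic at 15 µM against 5 µM 1 lower, in place of 0. The shallow control and acetaminophen with exosomes libraries limit HSPE1 and HSF2 most: the 3 HSF2 counts in acetaminophen with exosomes allow 0.789 to 11.2 CPM.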
